A study of Mus musculus with 42 samples.

Results

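The late response of macrophages that lack Nur77 to lipopolysaccharide (LPS) was described from RNA polymerase II (Pol II) on chromatin, measured by ChIP-seq in 3 KO 0 h and 3 KO 18 h LPS libraries, which are 6 of the 42 libraries of the series. Bone marrow cells of male C57Bl6/J mice aged 6 to 12 weeks were grown for 7 days with L929-conditioned medium, a source of the macrophage growth factor M-CSF, and were left unstimulated (0 h) or given 100 ng/ml LPS for 18 h. KO mice lacked the Nr4a1 gene, which encodes Nur77, in the whole body, because a loxP-flanked Nr4a1 locus had been recombined by Cre under the CMV promoter. The genotype label of the KO samples reads only cre, whereas the study describes the KO animals as free of the Cre transgene. Groups set beside the KO ones were Pol II in KO after 1 h of LPS, Pol II in WT littermates at 0 h and 18 h, and acetylation of histone H3 at lysine 27 (H3K27ac) in KO at 0 h and 18 h, with 3 libraries each, and 1 input library for each genotype and time. Nothing in the labels states whether the 3 libraries of a group came from separate mice or cultures, so the p-values measure the spread between these libraries.

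Each Pol II library consists of regions where tags, the mapped fragment ends, were dense, and every region carries a tag number scaled to a library of 10 M tags. The value of a gene is the sum of the normalized tags of all regions over the gene body and 500 bp on each side. Tags were spread evenly along a region, so that a region reaching over several genes gives each of them a part, and a value of 0 says only that no region passed the search there. Among 21897 protein-coding genes of the mouse genome build mm10, 13417 had a region in at least 2 of the 3 libraries of KO 0 h or of KO 18 h and were tested. A further 272 genes had a value in at least 1 of the 6 libraries but were not tested, and 8208 genes had no value in any of them. A gene is said to have risen or fallen where limma on log2(normalized tags + 10), a scale that understates the change of low genes, gave an adjusted p under 0.05 over all genes tested.

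Pol II transcribes all protein-coding genes of the nucleus, and its density along a gene reflects both recruitment at the promoter and passage through the gene body. LPS is sensed by Toll-like receptor 4, which first activates NF-κB and AP-1 and their rapid targets, such as the genes of TNF and of many chemokines. Interferon-β made in this first phase then acts back on the macrophage through its receptor and turns on interferon-stimulated genes, while over many hours metabolism shifts towards glycolysis, nitric oxide and itaconate. Nur77 is an orphan nuclear receptor whose gene is itself among the immediate-early genes that LPS induces in macrophages, and it is known as a brake on inflammatory gene expression in these cells.

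Pol II over Nr4a1 itself was checked before any other gene. The KO 0 h libraries held 87.8, 76.1 and 70.2 normalized tags, the KO 1 h libraries 33.5, 39.0 and 36.6, and the KO 18 h libraries 0 in each. In WT the values were 189, 188 and 208 at 0 h and 7.46, 5.98 and 0 at 18 h, so the locus of the knockout still carried some Pol II at 0 h but less than in each WT library, and these values do not show which part of the gene is missing. Total tags of the 6 KO libraries ran from 25.3 to 35.2 M, with 45498 to 57177 regions that held 70.4 to 79.9% of the tags, and libraries of a group correlated at r = 0.985 to 0.992 across 10650 genes found in all 18 Pol II libraries. Among the H3K27ac libraries, KO 18 h replicate 1 stood apart, correlating at r = 0.913 and 0.914 with KO 18 h replicates 2 and 3 across 10437 genes, whereas these correlated at 0.993 with each other. It correlated at 0.904 and 0.905 with KO 1 h replicates 2 and 3, with which KO 18 h replicates 2 and 3 correlated at 0.861 to 0.865. KO 1 h replicate 1 in turn correlated at 0.910 and 0.912 with its own group, whose other libraries reached 0.991. KO 18 h replicate 1 was thus closer to those 1 h libraries than its partners were, and the cause was not tested. The main H3K27ac counts are therefore given with and without it, whereas those over gene lists are given only with it. As the chromatin of a whole culture was measured, fewer cells with Pol II on a gene and less Pol II per cell cannot be told apart. The markers of the labelled cell type were present, with all 10 macrophage markers tested and a summed value of 27449 to 29633 normalized tags at 0 h and 40747 to 43904 at 18 h. Of these markers, Adgre1 (F4/80), Fcgr1 and Mertk rose, Csf1r, Itgam, Cd68, Lyz2, Mpeg1 and Tyrobp fell, and Spi1 did not pass the test. The higher sum at 18 h rests on Adgre1, which went from a mean of 4846 to 22571, while the median log2 change of the markers was -0.41. All 5 natural killer cell markers and all 5 mast cell markers were listed at 0 in all 6 libraries, as were 5 of 8 T cell markers (Cd3e, Cd3g, Cd8a, Thy1 and Zap70) and 5 of 8 neutrophil markers (Camp, Elane, Ly6g, Mpo and S100a9). The summed value of the dendritic cell markers, of which Clec9a and Siglech were listed at 0, was 295 to 323 at 0 h and 408 to 962 at 18 h, with Xcr1 rising (1.14 on the log2 scale), Flt3 falling to 0 in each library and Zbtb46 past no threshold. The summed value of the T cell markers was 154 to 194 and 191 to 195, with Lck rising and Cd3d falling, that of the B cell markers 165 to 210 and 95.1 to 105, that of the neutrophil markers 51.5 to 60.5 and 0 to 15.1, and the erythroid and stromal sums were at most 56.9 in each library, lower at 18 h than at 0 h. That of the endothelial markers was 297 to 320 and 493 to 557, with Pecam1 and Cdh5 rising and Kdr falling. The part of such cells in the results below was not tested.

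After 18 h of LPS, Pol II had changed over most genes of the KO macrophages. It rose over 3762 of the 13417 genes tested (28.0%) and fell over 5652 (42.1%), with 4003 genes past no threshold. Of the rises, 1702 (12.7% of the genes tested) were larger than 2-fold, as were 2429 of the falls (18.1%). The median log2 change over all genes tested was -0.18, the middle 50% of the genes lay between -0.76 and 0.40, and the outer 5% on each side lay below -2.03 and above 2.01. When each library was centred on the median of the genes found in all 18 Pol II libraries, that median moved up by 0.09 and the calls became 4326 rises and 5109 falls. After quantile normalization it moved up by 0.12, with 4338 rises and 4923 falls.

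The median length was 32.4 kb for genes that rose over 2-fold, 27.01 kb for those that fell over 2-fold and 19.4 kb for those past no threshold. The median Pol II density of genes that rose over 2-fold went from 3.69 to 20.2 normalized tags per kb, and regions covered a median of 15.9% of their windows at 0 h and 67.6% at 18 h. Among them, 174 genes had no region in any KO 0 h library. Genes that fell over 2-fold went from 6.80 to 1.37 normalized tags per kb, with coverage going from 26.8 to 6.30%, and 409 of them were listed at 0 in all 3 KO 18 h libraries. In a window of only 500 bp on each side of the gene start, 1866 genes rose and 2818 fell of 11237 tested. Of the calls made with the whole gene, 3660 were shared with that narrow window in the same direction and 481 in the opposite one. Among the genes named below, Runx1 rose in that window (log2 change 0.56), whereas Cd86 (-0.40), Jak1 (-0.71), Il1rn (-0.83), Pfkl (-0.43) and Rxra (-0.55) fell.

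**Figure D1:**
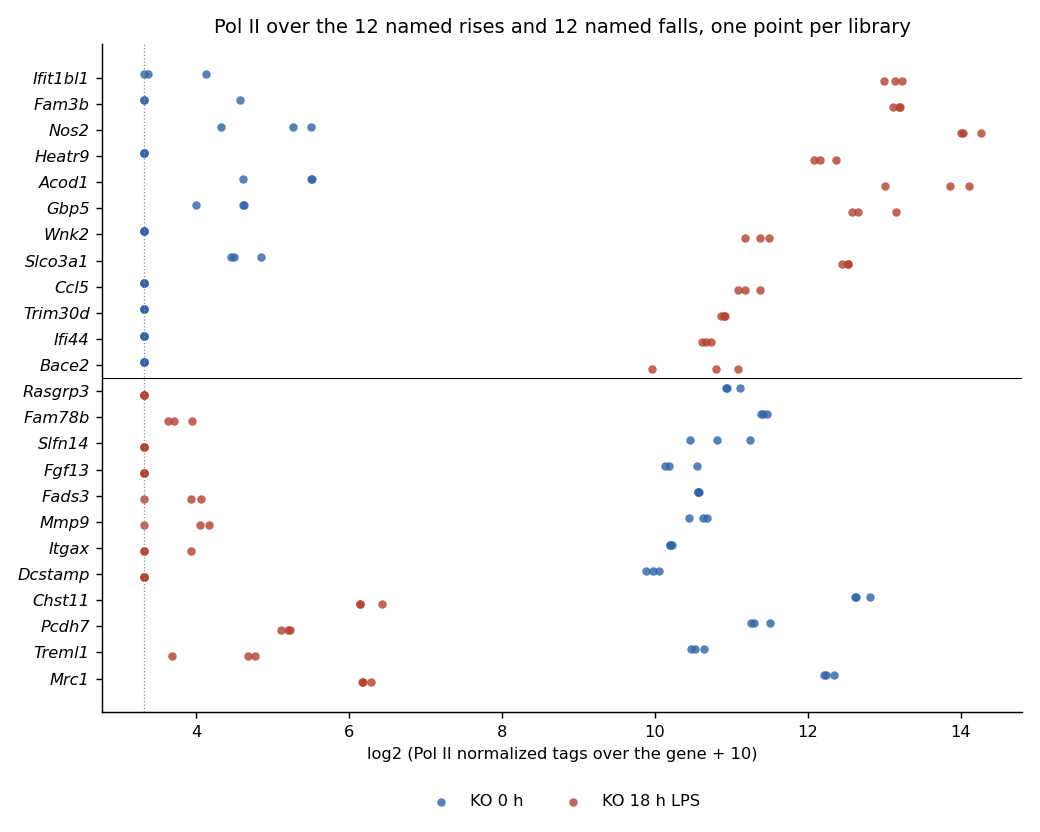
Pol II at 0 h (blue) and 18 h of LPS (red) in KO over the 12 rises and 12 falls named by rule, as log2(normalized tags + 10) with 1 point per library; the dotted line marks genes listed at 0. In all 24 genes the 3 libraries of one time lie apart from the 3 of the other because the rule required it. The same held for 73.2% of all genes tested. Of the falls, 4 (Rasgrp3, Slfn14, Fgf13 and Dcstamp) lie on the dotted line in all 3 libraries at 18 h.

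The named rises are the 12 with the greatest log2 change among genes whose libraries do not overlap between the times, with a mean of at least 100 normalized tags in the higher group. In the wide set of tested genes, 73.2% had libraries that did not overlap between 0 h and 18 h. Nos2, the inducible nitric oxide synthase that makes the antimicrobial gas of activated macrophages, lies at chr11:78920787-78960254 (mm10, the whole annotated gene, as for the positions that follow) and went from 9.97, 35.3 and 28.6 normalized tags at 0 h to 16659, 16290.0 and 19543 at 18 h, a log2 change of 9.06 ± 0.21 (SE, adjusted p = 9.4e-17). The libraries of both times were far apart, and at 18 h a single region of 67.3 to 74.0 kb covered the gene and reached the neighbouring Lgals9. Acod1 (chr14:103046977-103056573), which makes itaconate from an intermediate of the citric acid cycle, went from 35.1, 14.5 and 35.7 to 17518, 14801 and 8208 (log2 change 8.44 ± 0.28, adjusted p = 1.2e-14). The lowest of its 18 h libraries is the one in which the region over the gene was longest, 53.1 kb against 19.8 and 22.8 kb, so that its tags were spread over more sequence outside the gene. Slco3a1 (chr7:74275419-74554780), a transporter of organic anions, went from 12.6, 18.7 and 12.0 to 5853, 5856 and 5542 along its 279 kb (log2 change 7.89 ± 0.12, adjusted p = 4.9e-19), and no region over it reached another gene. Gbp5 (chr3:142493978-142522344), a guanylate-binding GTPase that promotes inflammasome assembly, went from 6.02, 14.5 and 14.6 to 6099.6, 9040.4 and 6429 (log2 change 8.38 ± 0.15, adjusted p = 2.9e-18), and its region also held Gbp7 in 2 of the 3 libraries at 18 h.

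Several of the other large rises had no region at all before LPS, so no fold change is given for them. Ifi44 (chr3:151730922-151749960), an interferon-stimulated gene, was listed at 0 in each KO 0 h library and held 1690.4, 1614 and 1552 normalized tags at 18 h (adjusted p = 3.8e-15), all in regions over no other gene. Wnk2 (chr13:49036303-49148014), a kinase of the family that regulates ion transport, was likewise listed at 0 at 0 h and at 1 h and held 2854, 2297 and 2642 at 18 h (adjusted p = 4.9e-19), with 22 to 43% of the value from a region that also covered Card19 and Ninj1. Ccl5 (chr11:83525778-83530518), a chemokine that attracts T cells and monocytes, went from 0 in each library to 2294, 2158 and 2636 (adjusted p = 1.7e-17). Heatr9 (chr11:83511736-83522175), which lies next to it, went from 0 to 4571, 4299 and 5252 (adjusted p = 1.2e-21). Both genes drew their whole 18 h value from one region of 48.3 to 51.5 kb that also reached Taf15, so their values are not separate measurements. Trim30d (chr7:104470014-104507849), of the TRIM family of antiviral ubiquitin ligases, went from 0 in each to 1921, 1910.5 and 1856 (adjusted p = 5.2e-17), of which 91 to 93% came from a region shared with its relative Trim30a.

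For 3 further named rises the region at 18 h lay over neighbours as well. Fam3b (chr16:97470965-97514816), a secreted cytokine-like protein, went from 0, 0 and 13.8 to 9430.4, 8800.0 and 9341 (log2 change 9.43 ± 0.25, adjusted p = 6.7e-16), and Bace2 (chr16:97356742-97442936), an aspartyl protease, went from 0 in each to 985, 1766 and 2156 (adjusted p = 3.6e-15). All tags of Bace2 and, to the nearest decimal, 99.9% or more of those of Fam3b at 18 h came from one region of 38.8 to 39.5 kb that spans Mx1, the interferon-induced GTPase that lies between them, and how much of the tags belongs to each of the 3 genes cannot be told from the region. Ifit1bl1 (chr19:34592891-34601956), a relative of the antiviral IFIT proteins, went from 0, 0.374 and 7.59 to 8126, 9599 and 8972 (9.51 ± 0.27, adjusted p = 1.2e-15). This was the greatest log2 change of all named genes with 10 tags added, and the rank depends on that number because other named genes were listed at 0 before LPS. Its region of 36.8 to 49.0 kb also covered Ifit2 and Ifit3, and reads of the near-identical copies in such families (the Ifit, Trim30, guanylate-binding and other GTPase genes) may not be placed with certainty.

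The 250 bases before the RefSeq start of the 5 named rises with the greatest change that have an entry in the promoter table (build GRCm38.p6) are shown because they lead the rises and because motifs of interferon and NF-κB signalling were searched in them. They lie at chr19:34601969-34602218 (minus strand), chr11:83522100-83522349 (minus strand), chr14:103046762-103047011 (plus strand), chr3:142496684-142496933 (plus strand) and chr13:49148329-49148578 (minus strand), in the order printed. Capitals mark a match to an interferon-stimulated response element (ISRE, GAAANNGAAA) in Ifit1bl1 and Gbp5, to a κB site (GGGNNTTTCC) in Gbp5 and to an AP-1 site (TGANTCA) in Heatr9, each searched on both strands, and no capitals mean that none of these letters nor the Nur77 half-site NBRE (AAAGGTCA) occur in the stretch. The RefSeq start of Gbp5 lies 2956 bp from the start of the annotation used for the gene windows, and that of Wnk2 314 bp.
Ifit1bl1: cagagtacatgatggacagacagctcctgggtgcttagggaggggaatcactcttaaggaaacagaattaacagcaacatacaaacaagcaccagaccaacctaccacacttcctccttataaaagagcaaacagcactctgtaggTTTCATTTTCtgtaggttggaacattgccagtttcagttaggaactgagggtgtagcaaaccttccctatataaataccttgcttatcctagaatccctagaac
Heatr9: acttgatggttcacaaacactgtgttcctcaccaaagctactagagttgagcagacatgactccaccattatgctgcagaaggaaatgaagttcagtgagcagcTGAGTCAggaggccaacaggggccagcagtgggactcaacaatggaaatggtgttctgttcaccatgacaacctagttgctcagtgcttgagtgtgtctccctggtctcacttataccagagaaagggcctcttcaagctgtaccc
Acod1: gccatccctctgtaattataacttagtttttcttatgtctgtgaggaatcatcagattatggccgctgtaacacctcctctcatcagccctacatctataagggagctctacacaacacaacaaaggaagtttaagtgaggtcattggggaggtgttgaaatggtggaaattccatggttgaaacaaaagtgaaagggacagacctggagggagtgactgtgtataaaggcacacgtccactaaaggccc
Gbp5: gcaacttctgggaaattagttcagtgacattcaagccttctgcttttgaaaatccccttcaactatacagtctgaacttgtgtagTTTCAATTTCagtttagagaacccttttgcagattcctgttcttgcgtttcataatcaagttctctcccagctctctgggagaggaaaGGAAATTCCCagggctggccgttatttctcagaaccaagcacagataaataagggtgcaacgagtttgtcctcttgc
Wnk2: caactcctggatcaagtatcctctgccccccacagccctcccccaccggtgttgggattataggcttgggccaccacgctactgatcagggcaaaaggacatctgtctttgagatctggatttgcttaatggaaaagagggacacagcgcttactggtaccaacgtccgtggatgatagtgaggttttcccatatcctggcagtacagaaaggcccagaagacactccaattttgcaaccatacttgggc

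The ISRE match of Ifit1bl1 lies 104 to 95 bases before the start and that of Gbp5 165 to 156 bases before it, where a κB match follows at 77 to 68 bases. H3K27ac within 2500 bp of the start, measured in other libraries, was listed at 0 in all 6 at Wnk2, and rose at Ifit1bl1 (log2 change 4.29), Acod1 (4.75) and Gbp5 (4.60). At Heatr9 it was 0 in each library at 0 h and 20.5, 667 and 705 at 18 h (adjusted p = 0.0055). Without KO 18 h H3K27ac replicate 1, which stood apart from the other two, the log2 changes of Ifit1bl1, Acod1 and Gbp5 were 4.46, 4.82 and 4.67. Over all genes with a promoter in the table, an ISRE match in the 250 bases before to 50 after the start was found in 3.26% of the 10414 tested genes and in 3.47% of all 16504. The share was 7.95% (106 of 1334) among genes that rose over 2-fold, 2.15% among those that fell over 2-fold and 2.30% among those past no threshold. It was higher the larger the rise, at 4.60% for log2 changes of 1 to 2, 9.36% for 2 to 4 and reached 31 of 124 promoters for rises over 4. κB matches were found in 2.32% of genes that rose over 2-fold and 1.24% of those that fell over 2-fold, against 1.68% of all tested. AP-1 matches were found in 8.02% and 5.43%, against 5.15% of all tested and 6.99% of all 16504, which lies above the share for log2 changes of 1 to 2. Their share too was higher the larger the rise, at 6.72% for log2 changes of 1 to 2, 7.39% for 2 to 4 and 23 of 124 promoters for rises over 4. NBRE matches were found in 0.600% and 1.51%, against 1.01%. These shares describe letters in a short window and were not tested.

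**Figure D2:**
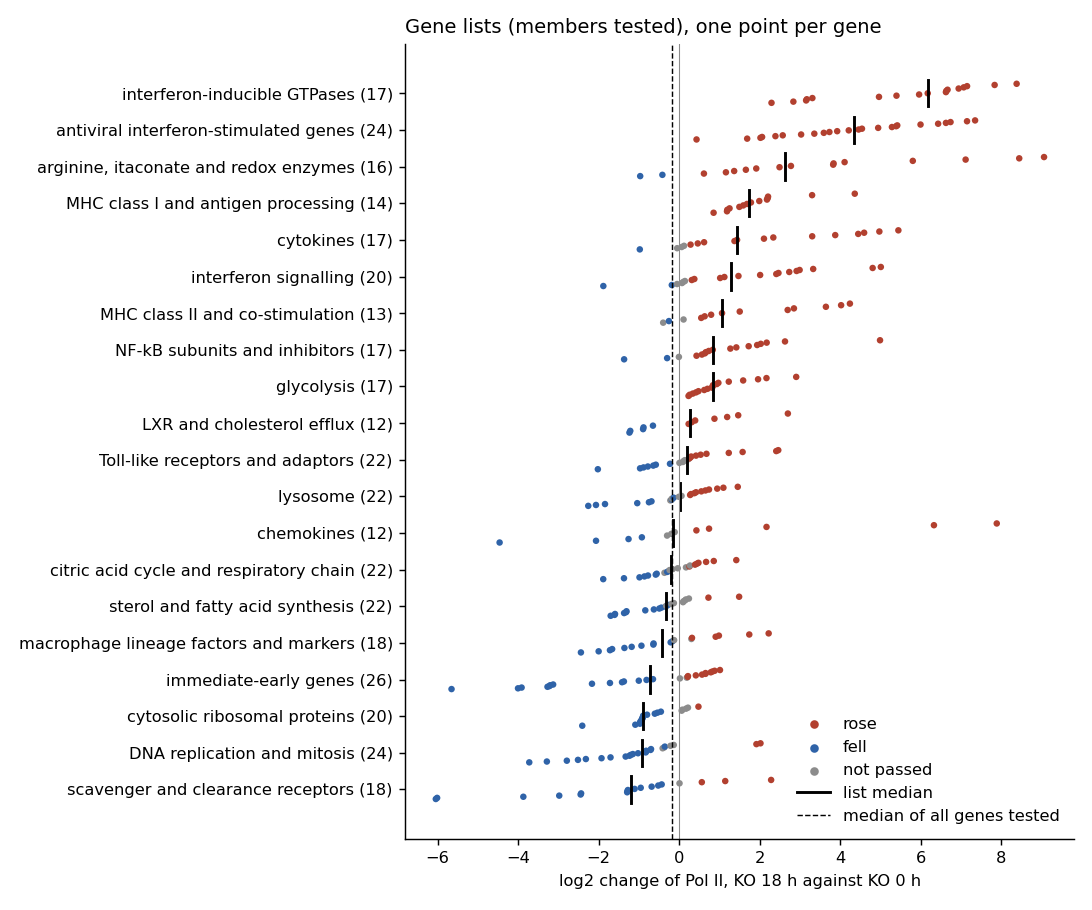
Log2 change of Pol II at 18 h against 0 h in KO for the members of 20 gene lists, 1 point per gene, red where it rose, blue where it fell and grey where it did not pass; changes of genes listed at 0 at one time depend on the added 10 tags. The interferon-inducible GTPases (median 6.17) lie farthest to the right and the scavenger and clearance receptors (median -1.19) farthest to the left, with the median of all genes tested (-0.18) as the dashed line.

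The 20 gene lists were read against these shares of 28.0% and 42.1% and the median of -0.18, and a value in parentheses after a gene is its log2 change unless another quantity is named. Interferon-stimulated genes rose as a block. All 24 tested members of the antiviral list rose, 23 of them over 2-fold, with a median log2 change of 4.33 (4.21 without the 1 member listed at 0 before LPS). Rsad2 (viperin), which makes a chain-terminating nucleotide, held 325, 306 and 321 normalized tags at 0 h and 20313, 19461 and 22857 at 18 h (log2 change 5.99). Its neighbour Cmpk2, a mitochondrial nucleotide kinase that shares a region with it, went from 154, 178 and 142 to 16068, 15395 and 18081 (6.62). Ifih1, the cytosolic sensor of double-stranded RNA known as MDA5, whose regions reached no other gene, went from 205, 194 and 151 to 4104, 4247 and 4235 (4.45). The same held for Herc6, the ligase that attaches the ubiquitin-like ISG15 to proteins in mice (98.2 ± 13.3 to 9269 ± 177, SD, n = 3), for the deconjugating enzyme Usp18 (4.21), for the Z-nucleic acid sensor Zbp1 (5.28) and for the oligoadenylate synthetase Oas1a (2.57). Ifi35 had the smallest rise (0.43). In 18 of the 24 genes over 50% of the 18 h value came from regions that also reach another gene. Another setting left out regions that overlap an input region. It dropped a whole Pol II region, however long, where this touched a region of any of the 6 inputs, and it did not subtract input tags. Over Nos2, for example, the KO 0 h and KO 18 h inputs held 6.62 and 10.8 normalized tags. Only 6 of the 24 genes could then be tested, of which none rose and 5 fell, and the cause was not tested. Over the whole table, that setting kept 2295 calls in the same direction and turned 641, and Nos2 (-0.98, adjusted p = 0.148) and Pfkfb3 (-3.17) among the rises and Runx1 (4.62) among the falls were of the other sign there. Usp18 too was of the other sign (-1.34, adjusted p = 0.00619), and Oas1a did not pass in the start window (0.39, adjusted p = 0.0569).

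The interferon-inducible GTPases, which attack the vacuoles of intracellular pathogens, all rose as well, 17 of 17 tested and each over 2-fold, with a median of 6.17. Iigp1, of the immunity-related GTPases, had regions of its own and went from 20.4, 25.7 and 26.1 to 4417, 4475 and 4725 (log2 change 7.06 ± 0.15). Gbp2 and Gbp3 of the guanylate-binding proteins went from 44.1 ± 3.00 to 6619.9 ± 223 and from 34.5 ± 7.48 to 1844 ± 11.2 (SD, n = 3 each). Gbp4 and Gbp10 had no region before LPS and held 2238, 2240.3 and 2329 and 65.3, 56.2 and 62.6 at 18 h. Irgm1, which guards the cell's own membranes against the other members, had the smallest rise (581 ± 13.3 to 2884 ± 102, log2 change 2.29). In 14 of the 17 genes over 50% of the value came from regions over more than one gene, most of them neighbours of the same family, so the members are not 17 independent rises. ISRE matches were present in 10 of the 11 promoters of this list in the table and in 10 of 18 of the antiviral list.

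The components of interferon signalling rose in part, with 14 rises, 2 falls and 4 past no threshold among 20 (median 1.29). In 13 of the 20 genes most of the value came from regions that also reach another gene. At the top of the pathway, the interferon-β gene Ifnb1 was listed at 0 in each KO 0 h library and held only 9.55, 5.96 and 22.9 at 18 h, against 249, 253 and 313 at 1 h. The receptor chains Ifnar1 (0.31) and Ifnar2 (0.37) rose, but not past the threshold under quantile normalization (adjusted p = 0.0837 and 0.18), and Ifngr1, the ligand-binding chain of the interferon-γ receptor, fell from 1413, 1308 and 1407 to 388, 379 and 329.6 (log2 change -1.89). Of the kinases, Jak2 went from 150.4, 149 and 155 to 4556, 4503 and 4432 (4.80), while Tyk2 (2.01) and Jak1 (1.47) rose less. The transcription factors Stat2 (2.73), Stat3 (2.91), Irf1 (2.41), Irf7 (2.46) and Irf9 (1.01) rose. With input-overlapping regions left out, Tyk2 (-4.19), Jak1 (-3.34) and Stat3 (-3.26) were of the other sign. Both inhibitors of the pathway rose, Socs3 from 17.6, 11.9 and 16.0 to 845, 816 and 729 (5.01) and Socs1 with a log2 change of 3.33. In the window of 500 bp on each side of the start, Stat3 (adjusted p = 0.0772) and Ifnb1 (0.124) did not pass.

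Cytokine genes rose in 13 of 17 tested, with 1 fall (median 1.44). Il1a, the alarmin IL-1α, went from 27.2, 30.2 and 35.2 to 958, 959.9 and 998 (log2 change 4.59), and Il1b from 54.1, 93.1 and 80.1 to 400.0, 386 and 461 (2.34). Il6 was listed at 0 in each library before LPS and held 457, 409.8 and 408 at 18 h (adjusted p = 2.3e-18), all in regions over no other gene. Il12a, which encodes the p35 chain of IL-12, went from 0 in each to 33.9 ± 11.3 (SD, n = 3), whereas Il12b, the p40 chain, was at 0 at both times and at 2599, 2106 and 2204 at 1 h. Il15, Il18 and Il23a rose (log2 changes 3.30, 3.87 and 4.97), the value of Il23a at 18 h coming from 1 region that also covered Stat2, and that of Il15 turning to -1.51 with input-overlapping regions left out. So did Tnf (1.37), the IL-1 receptor antagonist Il1rn (0.62) and the anti-inflammatory Il10 (1.44). Tgfb1 fell from 1579.7, 1672 and 1631 to 809, 819 and 831 (-0.98), and the other three members tested did not pass.

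Chemokine genes were split, with 5 rises and 4 falls among 12 tested and a median of -0.16. In 8 of the 12 genes most of the value came from regions that also reach another gene. Ccl3 and Ccl4 shared a region at 18 h, so their values there are not separate measurements. Besides Ccl5, Cxcl10, the interferon-inducible attractant of T cells, went from 15.3, 18.7 and 0 to 1512, 1445 and 1682 (log2 change 6.32), and Ccl12 (2.17) and Ccl3 (0.74) rose too. Ccl4 rose by a small amount (0.43) that did not pass without KO 0 h replicate 1 or 3 or without any of the KO 18 h libraries (adjusted p = 0.0503 to 0.291). Ccl6 and Ccl9, which resting macrophages make, fell from 1883, 2522 and 2298 to 88.7, 105 and 80.7 (-4.46) and from 4157, 2729.6 and 2487 to 696, 699 and 762 (-2.07). Cxcl2, an attractant of neutrophils, was lower at 18 h than at 0 h (174, 179 and 134 against 74.5, 72.4 and 93.8, log2 change -0.93), and the related Cxcl1 was at 0 at both times. Under quantile normalization the counts were 4 rises and 6 falls.

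Among NF-κB subunits and inhibitors, 14 of 17 rose and 2 fell, with a median of 0.83. The subunit genes Nfkb1 (0.83), Nfkb2 (1.27), Relb (0.73) and Rel (0.66) rose. Inhibitors rose alongside, namely Nfkbia (IκBα), from 708, 681 and 632 to 2852, 2542 and 2921 (2.02), Tnfaip3 (A20, 0.56) and Tnip1 (2.63). With input-overlapping regions left out, Nfkb1 (-2.08, adjusted p = 0.00375), Relb (-0.09) and Tnip1 (-1.32) were of the other sign, as were Nfkb1 (-0.09) and Relb (-0.11) in the start window. Traf1, an adaptor of TNF receptors with regions of its own, went from 63.1, 40.8 and 57.4 to 2044, 2014 and 1903 (4.99 ± 0.11). Nfkbid (-1.37) and Tnip3 (-0.30) fell. κB matches were found in 5 of 14 promoters of this list. Toll-like receptors and adaptors rose in 10 and fell in 7 of 22 (median 0.18), a split that became 8 and 9 under quantile normalization. The receptor of LPS, Tlr4, fell from 1776, 1734 and 1790.5 to 893, 897 and 894 (-0.97) and its co-receptor Cd14 from 613, 617 and 559.8 to 129.5, 143 and 146 (-2.02), while Ly96 (MD-2), which binds LPS on Tlr4, rose (1.57). The receptor of double-stranded RNA Tlr3 (2.41) and Irak3 (2.46), an inhibitory kinase homologue, rose most. In the start window Tlr3 (0.32) and Ly96 (0.23) did not pass, and Ly96 was at -0.58 without input-overlapping regions.

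Immediate-early genes, which respond to many stimuli without new protein synthesis, fell in 14 and rose in 10 of 26 (median -0.73). Myc fell from 1111, 1054 and 992 to 22.2, 6.45 and 7.57 (log2 change -5.66 ± 0.24, adjusted p = 5.3e-13), the lowest of the list, but stood at 0.49 (adjusted p = 0.0493) with input-overlapping regions left out. Egr1 fell from 998, 899 and 853 to 61.8, 57.6 and 37.3 (-3.92), with Egr2 and Egr3 at -4.01 and -3.21. Of the AP-1 genes, Fos (-1.72), Fosl1 (-3.27), Fosl2 (-3.22) and Jun (-0.81) fell, and Junb rose (0.41), but not past the threshold under quantile normalization (adjusted p = 0.0944). Atf3, a repressor induced by LPS, rose (5042 ± 67.0 to 9275 ± 175, log2 change 0.88). The phosphatase genes Dusp1 (0.82) and Dusp2 (1.01) and Zfp36 (0.78), whose protein degrades cytokine mRNAs, rose. The relatives of Nur77 fell, Nr4a2 (Nurr1) from 304, 262 and 259.6 to 138, 130.3 and 127 (-1.01) and Nr4a3 (NOR1) from 52.4, 37.6 and 37.4 to 0.892, 0 and 4.21 (-2.17), and at 1 h they stood at 321, 359.7 and 336 and 128, 146 and 131. Dusp1 did not pass in the start window (0.19, adjusted p = 0.414).

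Enzymes of arginine, itaconate and redox metabolism rose in 14 of 16 and fell in 2, with a median of 2.63. Next to Nos2 and Acod1, Ptgs2 (cyclooxygenase-2) went from 6.85, 9.80 and 16.6 to 2806, 2622 and 3164 (log2 change 7.11 ± 0.19), and Slc7a2, a carrier of arginine into the cell, from 0 in each to 539.9, 546 and 556. Ass1, which regenerates arginine from citrulline, went from 0, 5.11 and 0 to 166, 205 and 194 (4.11), and Gch1, needed for the cofactor of nitric oxide synthase, rose (1.91). None of these values overlapped between the times. Sod2 (3.83), Gclm (3.82), Slc7a11 (2.49) and Hmox1 (1.16), of the antioxidant defence, rose as well. The rise of Gch1 was not found in the start window (-0.12) or with input-overlapping regions left out (-0.77), and neither value passed the test.

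Glycolysis genes rose in 17 of 17 tested, but mostly by less than 2-fold (median 0.83), and 13 of them passed under quantile normalization. In 10 of the 17 genes most of the 18 h value came from regions that also reach another gene. Pfkfb3, which makes the activator of phosphofructokinase, went from 699, 766 and 815 to 5626, 5722 and 5884 (log2 change 2.90 ± 0.07), ahead of Hk1 (2.17), Pfkl (1.96), Hk3 (1.59) and Hif1a (1.23), where Hif1a is the transcription factor that drives the pathway. Among the smaller rises were those of Pkm (0.23) and Eno1 (0.34), neither of which passed under quantile normalization (-0.06 and 0.12). Genes of the citric acid cycle and respiratory chain moved both ways, 7 up and 9 down of 22 (median -0.20), and 9 up and 8 down after centring. Idh2 fell from 709, 735 and 788 to 205, 187 and 188 (-1.89) and Idh1 from 1430.1, 1319.9 and 1346 to 762, 755 and 717 (-0.87), whereas Ppargc1b, a coactivator of mitochondrial genes, rose (1.42). In the start window Pfkfb3 stood at -0.21 and Pfkl fell (-0.43), so not every glycolysis rise held there. Without input-overlapping regions Ppargc1b was at -0.60 (adjusted p = 0.0498) and Pfkl no longer passed (adjusted p = 0.305).

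Sterol and fatty acid synthesis fell in 12 of 22 genes and rose in 2 (median -0.33). Fatty acid synthase Fasn went from 175, 157 and 147 to 54.8, 43.1 and 41.2 (-1.60) and the elongase Elovl6 from 201, 181 and 171 to 47.1, 65.5 and 49.8 (-1.61), and the sterol enzymes Msmo1 (-1.37), Sqle (-1.32) and Cyp51 (-1.31) fell with them. Mvd (1.49), a decarboxylase of the mevalonate pathway, was among the rises. The LXR and cholesterol efflux list held 7 rises and 5 falls among 12. The receptor genes Nr1h3 (1.19) and Rxra (1.46) rose, the transporters went apart, with Abcg1 up (0.87) and Abca1 down (-0.65), and the lipid carriers Apoe (-1.22) and Pltp (-1.24) fell. Several of these calls changed when regions that overlap an input region were left out. Elovl6 was then at 1.31 (adjusted p = 0.0134), Sqle at 0.50 and Mvd at -0.62, and Msmo1 (-0.03) and Cyp51 (-0.83) did not pass. In the start window Sqle (-0.23) and Msmo1 (0.22) did not pass.

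Antigen presentation genes rose in most cases. All 14 genes of MHC class I and antigen processing rose, 13 of them over 2-fold (median 1.73), led by their activator Nlrc5, from 197, 186 and 153 to 3906, 3900.4 and 3736 (log2 change 4.36). The class I gene H2-K1 went from 474, 452 and 386 to 2255, 1794 and 2109 (2.20), the peptide transporter genes Tap1 (2.18) and Tap2 (3.30) and the immunoproteasome subunits Psmb8 (1.99), Psmb9 (1.78) and Psmb10 (1.19) rose, and in 12 of the 14 genes over 50% of the 18 h value came from regions that also reach another gene. With input-overlapping regions left out, Nlrc5 (-1.90, adjusted p = 0.00527) and Tap2 (-1.08) were of the other sign. In the MHC class II and co-stimulation list 10 of 13 rose and 1 fell (median 1.06). Ciita, the master activator of class II genes, went from 5.18, 6.25 and 22.7 to 117, 137 and 152 (2.85), H2-Ab1 from 42.8, 39.0 and 35.0 to 141, 127 and 118 (1.50) and H2-Aa rose with them (1.06). Cd86 went from 85.5, 103 and 78.7 to 1150.3, 1349 and 1172 (3.64), and Cd274 (PD-L1), the inhibitory ligand, from 732, 646 and 671 to 12792, 12765 and 13600.0 (4.24). The other B7 gene Cd80 fell slightly (-0.26), and not past the threshold without KO 0 h replicate 1 (adjusted p = 0.077). Cd80 did not pass without input-overlapping regions either (-0.76, adjusted p = 0.135), and H2-Ab1 did not pass in the start window (0.35, adjusted p = 0.176).

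The 12 named falls were chosen by the same rule as the rises. Mrc1, the mannose receptor CD206, lies at chr2:14229392-14332057 and went from 4704, 4829 and 5149 normalized tags at 0 h to 62.1, 62.5 and 67.9 at 18 h (log2 change -6.05 ± 0.07, adjusted p = 8.3e-21). Itgax (CD11c, chr7:128129547-128150657), an integrin of macrophages and dendritic cells, went from 1186, 1162 and 1161 to 0, 5.29 and 0 (-6.68 ± 0.14, adjusted p = 2.5e-17). Dcstamp (chr15:39745930-39760938), needed for the fusion of macrophages into giant cells and osteoclasts, went from 995, 1048 and 929 to 0 in each (adjusted p = 4.5e-20). Mmp9 (chr2:164940780-164955850), a gelatinase, went from 1573, 1626 and 1380.1 to 6.55, 0 and 8.07 (-6.73 ± 0.20, adjusted p = 2.6e-15). In these genes at most a few short regions were found at 18 h. Rasgrp3 (chr17:75435896-75529054), an activator of Ras and Rap GTPases, went from 1953, 1938 and 2190.4 to 0 in each (adjusted p = 4.3e-16), as did Slfn14 (chr11:83275110-83286726), a ribosome-associated endoribonuclease, from 1396, 2403 and 1787 (adjusted p = 1.3e-17), and Fgf13 (chrX:59062145-59568071), an intracellular fibroblast growth factor homologue, from 1107, 1152 and 1484 (adjusted p = 9.0e-17).

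Chst11 (chr10:82985498-83195900), a chondroitin sulfotransferase, went from 6309, 6233 and 7169.9 to 60.6, 76.4 and 60.8 (log2 change -6.44 ± 0.10), with a single region of 219.3 to 219.8 kb at 0 h and 4 or 5 regions of at most 1.51 kb at 18 h. Fam78b (chr1:167001417-167091302) went from 2652, 2706 and 2822 to 2.42, 5.38 and 3.13 (-7.65 ± 0.12) and Pcdh7 (chr5:57717967-58133230), a protocadherin, from 2422, 2507 and 2883 to 27.4, 26.8 and 24.6 (-6.17 ± 0.14). Fads3 (chr19:10041569-10060110), a member of the fatty acid desaturase family, went from 1499, 1518 and 1496 to 0, 6.78 and 5.24 (-6.79 ± 0.16), its value at 0 h coming from a region of 50.6 to 50.9 kb that also covered Fads2 and Rab3il1. Treml1 (chr17:48359916-48367176), a TREM-like receptor, went from 1584, 1408 and 1463 to 17.3, 15.7 and 2.83 (-6.17 ± 0.26) in a region shared with Trem2 at 0 h. The regions over Dcstamp and Itgax at 0 h likewise reached 1 neighbour each, Dpys and the predicted gene Gm49368. Some of these loci also had input regions, which differed between the single KO inputs: 1495 at 0 h and 112 at 18 h for Pcdh7, 503 at 0 h and 29.96 at 18 h for Mrc1, 318 at 0 h and 0 at 18 h for Rasgrp3 and 238 at 0 h and 0 at 18 h for Chst11, in normalized tags. Without input-overlapping regions Fads3 (0.45) and Treml1 (0.59) were of the other sign, and neither passed.

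The 250 bases before the RefSeq start are shown for the 3 named falls with the greatest change that have an entry, at chr17:75435655-75435904 (plus strand), chr11:83286727-83286976 (minus strand) and chrX:59567349-59567598 (minus strand) of GRCm38.p6, for comparison with those of the rises. Slfn14 holds an AP-1 match, in capitals, 134 to 128 bases before its start, and none of the motifs searched occurs in the other two. The RefSeq start of Fgf13 lies 723 bp from the start of the annotation used for the gene windows.
Rasgrp3: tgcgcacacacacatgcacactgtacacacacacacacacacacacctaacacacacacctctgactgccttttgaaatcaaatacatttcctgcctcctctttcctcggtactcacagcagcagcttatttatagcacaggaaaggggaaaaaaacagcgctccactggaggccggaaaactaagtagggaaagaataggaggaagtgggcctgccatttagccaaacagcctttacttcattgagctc
Slfn14: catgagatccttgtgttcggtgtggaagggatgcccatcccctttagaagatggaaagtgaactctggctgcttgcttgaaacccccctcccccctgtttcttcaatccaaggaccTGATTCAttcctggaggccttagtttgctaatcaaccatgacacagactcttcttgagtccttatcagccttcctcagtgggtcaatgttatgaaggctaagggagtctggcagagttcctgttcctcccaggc
Fgf13: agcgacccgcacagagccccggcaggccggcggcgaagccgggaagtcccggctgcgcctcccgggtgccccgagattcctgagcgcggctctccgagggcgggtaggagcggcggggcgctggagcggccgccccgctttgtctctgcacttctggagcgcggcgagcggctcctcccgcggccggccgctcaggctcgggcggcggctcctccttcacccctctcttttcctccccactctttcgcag

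H3K27ac within 2500 bp of the start fell at Rasgrp3 (log2 change -4.19) and Fgf13 (-1.97), and without KO 18 h H3K27ac replicate 1 the values were -3.75 and -2.01. At Slfn14 the mark was listed at 0 in all 6 libraries.

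Scavenger and clearance receptors, by which macrophages take up lipoproteins and dying cells, fell in 14 of 18 tested and rose in 3 (median -1.19). Cd36, the receptor of oxidized lipoproteins, went from 17584, 17221 and 19035 to 3279, 3330.4 and 3290.3 (log2 change -2.44 ± 0.07), and Cd163, the haptoglobin-haemoglobin receptor, from 665, 631 and 615 to 0 in each (adjusted p = 1.0e-14). Trem2 (-2.45), Gas6 (-2.98), the Fc receptor gene Fcgr3 (-1.11) and the complement genes C1qa (-3.87), C1qb (-1.29) and C1qc (-1.29) fell. One region held the 3 complement genes at 0 h, so they are not separate measurements, and C1qa turned to 0.84 with input-overlapping regions left out. Mertk, a receptor for apoptotic cells, rose from 2664, 2692 and 2921 to 6113, 6029.9 and 6136 (1.14), and Msr1 rose (0.56). Marco, induced by LPS in many macrophages, went from 0 in each to 27.7, 31.2 and 63.9. In the start window Gas6 was at 0.22 (adjusted p = 0.407), and Marco did not pass either (adjusted p = 0.0641).

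Lineage factors and markers of macrophages fell in 11 of 18 and rose in 5 (median -0.43). Csf1r, the M-CSF receptor, went from 5164, 5292 and 5044 to 1648, 1644 and 1567 (-1.67), Runx1 from 7908, 7754 and 8620.4 to 1997, 2189.9 and 1857 (-2.0), and Lyz2 (lysozyme, -2.44) and Itgam (CD11b, -1.72) fell. Adgre1 (F4/80) rose from 4695, 4561 and 5282 to 22244, 22181 and 23288 (2.22), as did Cebpb (1.74), a transcription factor of inflammatory macrophages, whereas Cebpa fell (-1.18). Lysosomal genes moved both ways, with 10 rises and 8 falls among 22 (7 and 9 under quantile normalization). Atp6v0d2, a subunit of the proton pump, fell from 5229, 5104 and 5506 to 1099, 1062 and 1119.7 (-2.26) and the proteases Ctsl (-2.07) and Ctsd (-1.04) fell, while the cholesterol carriers Npc2 (1.45) and Npc1 (0.94) rose. When input-overlapping regions were left out, Itgam was at 1.32 (adjusted p = 2.1e-05) and Npc1 at -2.39 (adjusted p = 0.000281), and in the start window neither passed (-0.04 and 0.17).

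Genes of DNA replication and mitosis fell in 18 of 24 and rose in 2, with a median of -0.93. Ccnb2, a mitotic cyclin, went from 508, 449.9 and 491 to 45.1, 42.3 and 34.3 (-3.29), Cdk1 from 185, 192 and 220.0 to 27.1, 27.1 and 25.2 (-2.52) and Rrm2, which makes deoxynucleotides, from 125, 139 and 106 to 0 in each. Of the Ccnb2 value at 0 h, 96.9 to 100% came from a region of 207.6 to 208.9 kb that also lay over other genes, and Ccnb2 did not pass in the start window (0.01) or without input-overlapping regions (-0.46). Cyclin E1 (Ccne1) and Mcm5 went the other way, from 61.6, 71.7 and 58.7 to 328, 236 and 309.7 (2.02) and from 68.6, 78.2 and 80.8 to 260.3, 367 and 322 (1.92). The 18 h value of Mcm5 came whole from a region of 28.3 to 28.9 kb that also covered Hmox1, and over the gene body without the start Mcm5 was lower at 18 h (-2.35), as it was without input-overlapping regions (-1.17, adjusted p = 0.0117). Ccne1 was at -0.39 in the start window and at -0.13 without input-overlapping regions, neither past the threshold. Cytosolic ribosomal protein genes fell in 15 of 20 and rose in 1 (median -0.90), for example Rplp0 (-0.97), Rpl3 (-0.91), Rpl4 (-0.93) and Rps2 (-0.95). Rpl10a fell further (-2.41), Rpl18 rose (0.48), and in 14 of the 20 genes over 50% of the value came from regions over a neighbour as well. Rpl3 did not pass in the start window (-0.18, adjusted p = 0.0514).

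**Figure D3:**
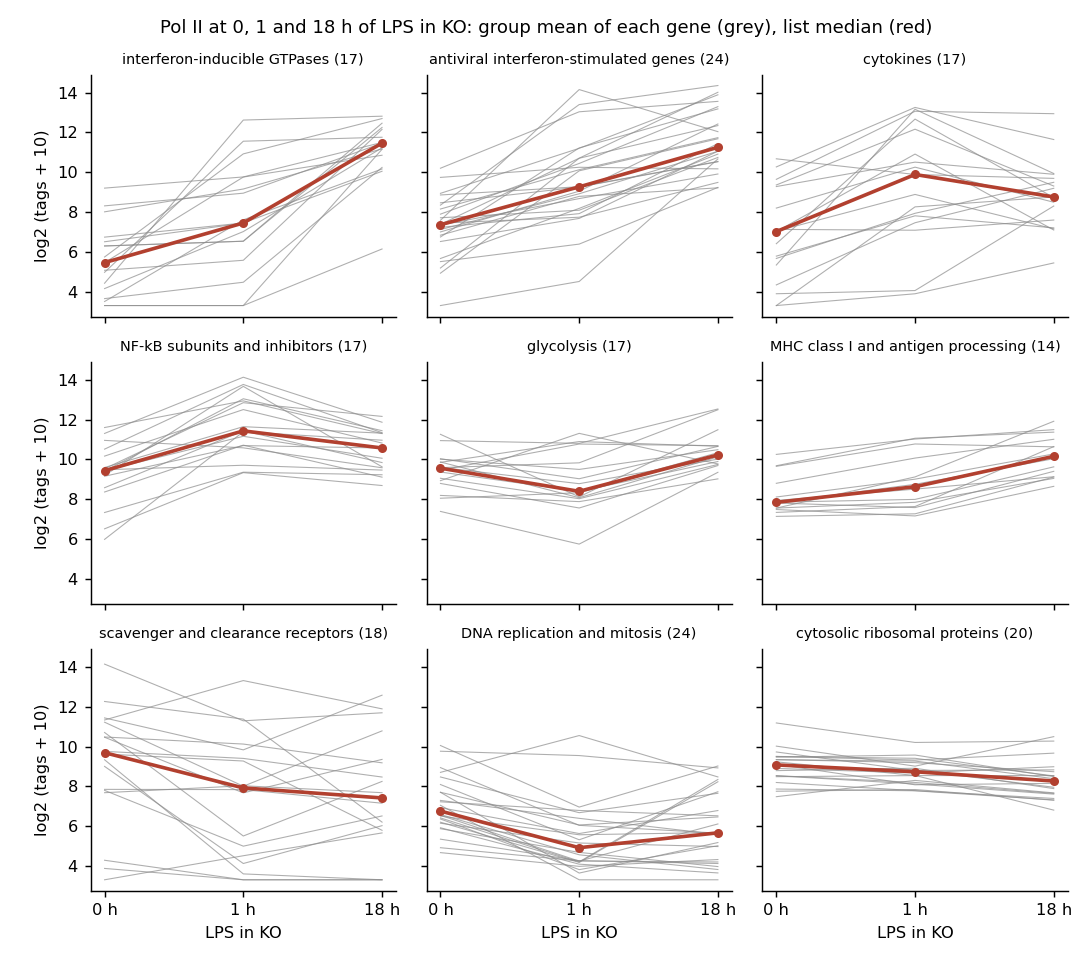
Pol II in KO at 0, 1 and 18 h of LPS for the tested members of 9 gene lists, as log2(mean normalized tags + 10) of the 3 libraries, grey for each gene and red for the list median. The list medians of interferon-inducible GTPases and MHC class I genes are highest at 18 h, those of cytokine and NF-κB genes at 1 h, and those of glycolysis and of replication and mitosis genes are lowest at 1 h. A fall at 1 h was common, as 8257 of all 13267 genes tested fell from 0 h to 1 h and 2735 rose (median -0.62).

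Comparison of 18 h with 1 h of LPS in KO showed what set the late state apart from the early one. Of 12947 genes tested, Pol II was higher at 18 h over 7149 (55.2%) and lower over 3137 (24.2%), with a median log2 difference of 0.47. This split depends on the scaling, as centring the libraries moved the median by -0.48 and gave 4811 higher and 5117 lower, and quantile normalization gave 5027 and 4831. Interferon-inducible GTPases were higher at 18 h in 15 of 17, with the other two past no threshold, and the same count held after centring. MHC class I genes were higher in 13 of 14 (10 higher and 2 lower after centring), and glycolysis genes were higher in 14 of 17 and lower in 2. Replication and mitosis genes were higher in 10 and lower in 6 of 23, and in 9 and 11 after centring. NF-κB subunits and inhibitors were lower in 15 of 17, with the other two past no threshold, cytokine genes were lower in 13 and higher in 6 of 20, and chemokines were lower in 15 of 16 tested.

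The genes most above their 1 h level included Nos2, at 93.6, 92.2 and 67.6 normalized tags at 1 h against 16659, 16290.0 and 19543 at 18 h (log2 difference 7.54 ± 0.21), and Ifit1bl1, at 8.10, 7.49 and 23.6 against 8126, 9599 and 8972 (8.66 ± 0.26). Fam3b (7.45) had the reading with Mx1 given above, and Wnk2 had no region at 1 h. Iigp1 stood at 30.8, 47.6 and 36.2 at 1 h (6.58). At the other end were genes with a region in each library at 1 h and in none at 18 h. Mmp13, a collagenase, held 4650.4, 4278 and 4029 at 1 h, Tnfsf4 (OX40 ligand) 4048, 3652 and 3632, Cxcl1 2746, 2449 and 2389 and Il12b 2599, 2106 and 2204, each listed at 0 in every KO 18 h library. Acod1 held 15837, 13888 and 14692 at 1 h, within the range of its 18 h libraries (log2 difference -0.20, adjusted p = 0.51), but was lower at 18 h after centring (-0.68, adjusted p = 0.0339). Gbp5 held 6709.7, 6099 and 6043 at 1 h, against 6099.6, 9040.4 and 6429 at 18 h (0.17, adjusted p = 0.3), and was higher at 18 h under quantile normalization (0.67, adjusted p = 0.000146). Tnf, Il1b and the inhibitor gene Nfkbiz were lower at 18 h than at 1 h, with log2 differences of -1.61, -3.93 and -4.03. Nos2 was at -1.06 against 1 h (adjusted p = 0.114) without input-overlapping regions.

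**Figure D4:**
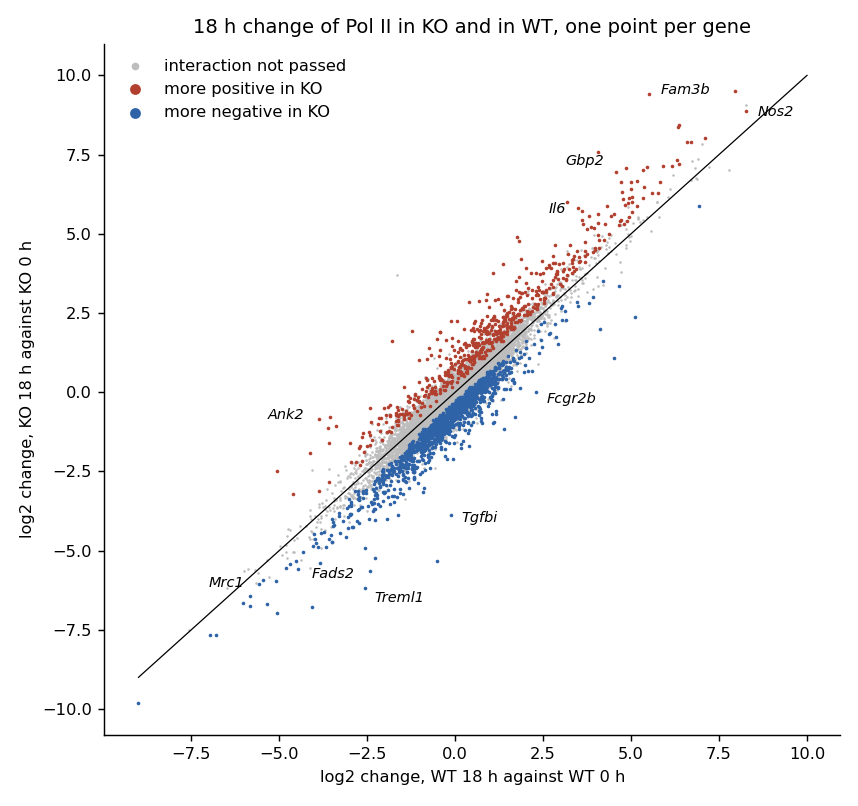
Log2 change of Pol II after 18 h of LPS in KO (vertical) against WT (horizontal), 1 point per gene with both changes, with a line where the changes are equal; red and blue mark genes past the interaction test in either direction. Fam3b and Ank2 lie above the line and Tgfbi and Treml1 below it; changes of genes listed at 0 in a group depend on the added 10 tags.

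Most genes that changed in KO changed in the same direction in WT littermates, whose libraries are separate from those of KO. Across 13210 genes tested in both, the 18 h changes of KO and WT correlated at r = 0.941, a description over genes that are not independent replicates. Of the 1667 genes that rose over 2-fold in KO and were tested in WT, 1609 (96.5%) rose in WT, and of 2415 that fell over 2-fold, 2272 (94.1%) fell there. Of all rises, whatever their size, 90.5% rose in WT, and of all falls 72.6% fell there, against 33.4% and 33.1% of all genes tested in both. The difference between both 18 h changes was tested as an interaction over 13566 genes. It was more positive in KO for 659 genes (4.86%) and more negative for 1350 (9.95%). The balance of the directions rested on the scaling, since centring gave 1329 more positive and 766 more negative and quantile normalization 1129 and 1073. It moved also without WT 0 h replicate 1, to 861 and 989. That library held 61.6% of its tags in regions, against 71.5 and 71.1% in WT 0 h replicates 2 and 3. In the window around the gene start, 80 and 187 genes passed, and of the genes named for this comparison the differences of Iigp1, Acod1, Il1b, H2-Ab1, C1qa, Ifngr1, Smpdl3a and Fads2 did not pass there, and those of Cd86 (-0.52) and Itgam (0.11) were of the other sign.

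Of the 20 lists, the interferon-inducible GTPases had the greatest share of more positive genes, 15 of 17, with the other two past no threshold (16 more positive after centring). Gbp2 went from 44.1 ± 3.00 to 6619.9 ± 223 in KO and from 182 ± 15.1 to 4510.2 ± 143 in WT (SD, n = 3 each; difference of the log2 changes 2.38 ± 0.09, adjusted p = 4.3e-11). For Gbp5 the WT values were 57.4 ± 8.80 and 5409 ± 61.0 (2.04 ± 0.21, adjusted p = 5.9e-06) and for Iigp1 98.2 ± 20.7 and 3074 ± 80.9 (2.21 ± 0.21, adjusted p = 1.9e-06). In these 3 genes the KO libraries stood below WT before LPS and above WT at 18 h. Antiviral interferon-stimulated genes were more positive in 8 of 24, and in 15 after centring, with the rest past no threshold.

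Cytokine genes were more positive in KO in 9 and more negative in 1 of 19 (11 more positive after centring, with the rest past no threshold). Il6 held 457, 409.8 and 408 in KO at 18 h against 104, 122 and 107 in WT, and no library of either genotype had a region there at 0 h (adjusted p = 1.0e-07). Il1b went from 75.7 ± 19.9 to 416 ± 39.9 in KO and from 108 ± 4.80 to 241 ± 6.82 in WT (1.25 ± 0.18), and Tnf from 1225 ± 126 to 3189.6 ± 397 and from 1551 ± 65.7 to 2611 ± 59.8 (0.62 ± 0.13). NF-κB subunits and inhibitors were more positive in 5 and more negative in 1 of 17, and in 12 and 1 after centring. MHC class II and co-stimulation was more positive in 7 of 13 (9 after centring), with the rest past no threshold, and with Ciita at 35.7 ± 8.90 and 49.9 ± 11.2 in WT (2.46 ± 0.32), Cd86 at 87.8 ± 1.94 and 334 ± 40.1 (1.83 ± 0.16) and H2-Ab1 at 42.3 ± 11.0 and 57.6 ± 5.56 (1.11 ± 0.21). Leaving out input-overlapping regions put the difference at -0.54 for Ciita and -0.15 for Cd86, and these and H2-Ab1 (2.45, adjusted p = 0.0532) did not pass there. Acod1 (2.07 ± 0.40) and Ptgs2 (1.65 ± 0.27) were among the 7 more positive of 16 genes of arginine, itaconate and redox metabolism. At 18 h Acod1 held 10651, 6881 and 15738 in WT, which overlaps the KO range, whereas at 0 h it was at 28.5 ± 12.1 in KO and 117 ± 10.2 in WT. Ptgs2 was at 20.5 ± 9.72 and 1281 ± 35.7 in WT.

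More negative than positive changes in KO were found in several lists. Immediate-early genes were more negative in 9 and more positive in 2 of 26 (4 and 4 after centring), and the LXR and cholesterol efflux list was more negative in 3 of 12 (2, with 1 more positive, after centring), with the rest past no threshold. The list of macrophage lineage factors and markers was more negative in KO in 8 of 18, with the rest past no threshold, but after centring in 4, with 1 more positive. Lysosomal genes were more negative in 9 of 22 (5, with 1 more positive, after centring), and scavenger and clearance receptors were more negative in 7 and more positive in 2 of 18 (5 and 3 after centring). Itgam went from 2659 ± 28.1 to 801 ± 69.0 in KO and from 2393 ± 192 to 1796 ± 46.7 in WT (-1.31 ± 0.14). C1qa went from 781 ± 35.3 to 45.8 ± 18.6 in KO and from 819 ± 66.5 to 281 ± 121 in WT (-2.26 ± 0.35). With input-overlapping regions left out, these differences were 1.32 (adjusted p = 0.00432) for Itgam and 0.84 (0.222) for C1qa. Fcgr2b, the inhibitory Fc receptor, was at 196 ± 24.3 at 0 h and 196 ± 12.9 at 18 h in KO and went from 238, 259 and 266 to 1293, 1272 and 1286 in WT (-2.29 ± 0.12, adjusted p = 1.5e-09). Ifngr1 (-0.93 ± 0.11), the phospholipid transfer protein gene Pltp (-0.92 ± 0.10) and Smpdl3a (-1.35 ± 0.15), a phosphodiesterase gene and known LXR target, were more negative as well.

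The genes named for the interaction by rule and reported here were Fam3b, Ank2 and Ifi202b on the positive side and Tgfbi, Trim12a, Treml1 and Fads2 on the negative one. Tgfbi (chr13:56609523-56639562), an extracellular matrix protein induced by TGF-β, went from 223, 213 and 196 to 10.5, 0 and 6.89 in KO and from 187, 212 and 196 to 204, 176 and 162 in WT (-3.73 ± 0.35, adjusted p = 1.6e-06). Treml1 kept 137, 283 and 315 in WT at 18 h (-3.61 ± 0.37, adjusted p = 4.2e-06) and Fads2 (chr19:10062765-10101746), a desaturase of polyunsaturated fatty acid synthesis, 47.1, 26.2 and 25.9 against 0 in each KO library (adjusted p = 1.6e-04). Ank2 (chr3:126921612-127499350), an ankyrin gene, went from 23.7, 34.1 and 27.5 to 12.4, 10.6 and 10.3 in KO and from 157, 180.1 and 156 to 0, 0 and 6.48 in WT (3.02 ± 0.31, adjusted p = 4.0e-06), and its fall in KO did not pass with 1 tag added (adjusted p = 0.155) or under quantile normalization (0.13). For Fam3b the WT 18 h libraries held 410.3, 372 and 592 (adjusted p = 1.4e-06, and 0.0551 with 1 tag added in place of 10), and the region over Mx1 and Bace2, 28.1 to 28.6 kb long in WT, did not reach it. Without input-overlapping regions the differences of Trim12a (adjusted p = 0.304) and Treml1 (0.911) did not pass.

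Some of these differences were already there before LPS. Ifi202b (chr1:173962568-173982744), an interferon-inducible gene of the HIN-200 family known to be expressed in some inbred mouse strains and hardly in C57BL/6, held 442, 430.4 and 518 at 0 h and 3650.3, 3637 and 3582 at 18 h in KO and 0 in each WT library at both times (adjusted p = 2.9e-07). The KO 0 h and KO 18 h inputs held 400 and 287 normalized tags over Ifi202b, so its KO 0 h value lay near that of the input. What this input signal reflects was not tested. Trim12a (chr7:104299894-104315466), of the TRIM family, held 78.0, 108 and 104 and 1355, 1396 and 1423 in WT and 0 in each KO library (adjusted p = 9.4e-11). Over all 18 Pol II libraries, 3 genes had a value in all 9 of one genotype and 0 in all 9 of the other, namely Gm45194 (7.58 to 27.5 normalized tags) in KO and Trim12a (78.0 to 1423) and Cysltr2 (10.1 to 65.5), a leukotriene receptor gene, in WT. They lie on chromosomes X, 7 and 14. Trim30d, close to Trim12a on chromosome 7, was at 0 in KO and at 143, 175 and 175 in WT before LPS. Similar copies in these families could share reads, and the part of the genetic background in these loci was not tested.

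The mark H3K27ac, which active promoters and enhancers carry, was read within 2500 bp of the gene start in separate KO libraries. Of 11999 starts tested, the mark rose at 2207 (18.4%) and fell at 4099 (34.2%), and without KO 18 h H3K27ac replicate 1 at 2164 and 4749 of 11962. Centring the libraries gave 2771 rises and 3377 falls.

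Where Pol II had risen over 2-fold, H3K27ac at the start rose in 949 of 1397 genes tested (67.9%) and fell in 69, and without replicate 1 it rose in 960 of 1390 (69.1%). Where Pol II had fallen over 2-fold, H3K27ac fell in 1474 of 1959 (75.2%) and rose in 27, and without replicate 1 it fell in 1604 of 1958 (81.9%). Among genes whose Pol II had not passed, it rose in 11.2% and fell in 23.1%, and without replicate 1 in 10.2% and 29.5%. The median log2 changes of H3K27ac in these sets were 0.75, -0.82 and -0.08, and without replicate 1 they were 0.77, -0.88 and -0.14. With replicate 1 kept, all 24 antiviral interferon-stimulated genes, all 17 GTPases and 13 of 14 MHC class I genes rose in H3K27ac too. In the same setting 16 of 20 ribosomal protein genes and 18 of 24 replication and mitosis genes fell. At Nos2 the mark was 0, 5.71 and 0 at 0 h and 474, 597 and 519 at 18 h (log2 change 5.53), and at Mrc1 307, 258 and 224 and 147, 117 and 143 (-0.90), and the libraries of both times did not overlap at either gene. Without replicate 1 these changes were 5.61 and -0.96. The H3K27ac change of Fads3, one of the named falls, was -0.66 and did not pass (adjusted p = 0.16). At Ifi202b in KO, H3K27ac fell (-0.92) while Pol II rose (2.94), also without replicate 1 (H3K27ac -1.22). With 1 tag added in place of 10, the H3K27ac fall of Ifi202b did not pass (-0.99, limma adjusted p = 0.22).

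**Figure D5:**
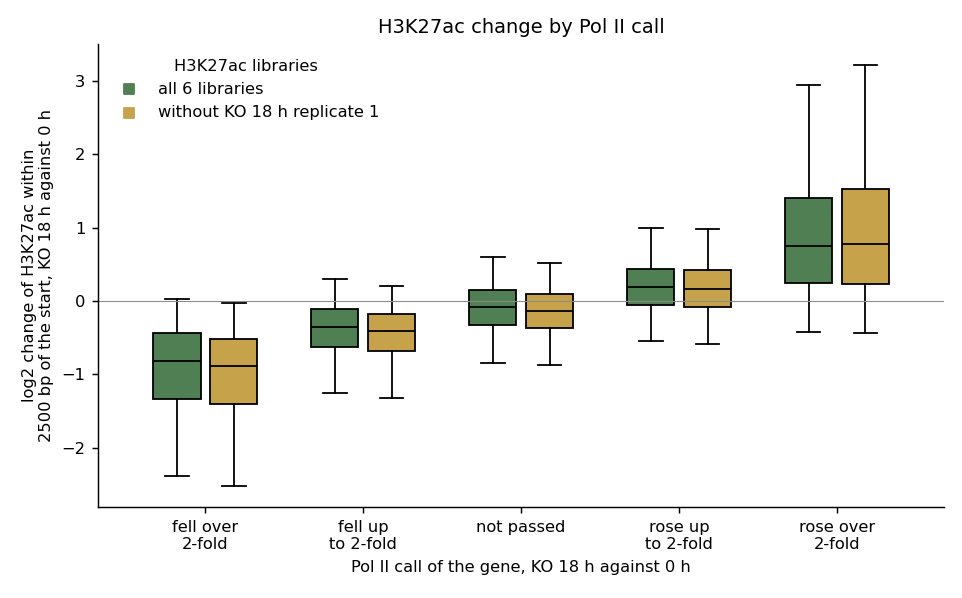
Log2 change of H3K27ac within 2500 bp of the gene start in KO at 18 h against 0 h, by the Pol II call of the gene, with all 6 libraries (green) and without KO 18 h replicate 1 (yellow); boxes give the median and quartiles over genes and whiskers the 5th and 95th percentiles. Medians go from -0.82 where Pol II fell over 2-fold to 0.75 where it rose over 2-fold, and the order of the 5 sets is the same without replicate 1.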

How the data were processed

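Pol II and H3K27ac ChIP-seq of bone marrow-derived macrophages was used. Per the study's methods, reads had been trimmed (Skewer), mapped to mm10 (HISAT2) and cleared of duplicates by the authors. The sample records give version 2.1.0 of HISAT2. Regions had been called in each library with HOMER's histone style, without an input control, in 500 bp windows at a Poisson p of 0.001, stitching regions under 1000 bp apart. As deposited, the signal of each region is the number of its tags scaled to 10 M tags in the library. Gene values were summed from these regions over the body and 500 bp on each side of 21897 protein-coding genes of GENCODE vM21 (54 repeated symbols left out), with tags shared by overlap. Windows of 7393 genes overlap that of another gene.

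Values were tested as log2(normalized tags + 10) with limma 3.58.1 (R 4.3.3, trended variance, Benjamini-Hochberg adjustment over all genes tested, two-sided) in one fit of 6 group means over 18 Pol II libraries; H3K27ac within 2500 bp of the start was fitted on its own. SD and SE are over libraries and from limma. Tables and figures were made with matplotlib 3.10.9, pandas 2.3.3 and numpy 2.4.6 under Python 3.11.15. The fit was tested on simulated data. The region lists give no per-gene tag counts, so a value of 0 has no counting limit.

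Named genes were the 12 rises and 12 falls of greatest log2 change that passed, had libraries that did not overlap, a mean of at least 100 normalized tags in the higher group and a window over no other gene, predicted genes (Gm, Rik) left out, and 4 in each direction by the same rule for KO against WT and for 18 h against 1 h, besides Nr4a1 and members of the gene and marker lists; some of these genes are not reported here. The members and lists were chosen with earlier results of these data known. Tags of near-identical genes may not be placed with certainty. Promoters are from RefSeq (GRCm38.p6), where 16504 genes matched; genes without an entry are named only. Alternatives were other added tag numbers, filters, scalings, windows, regions that overlap an input left out, the replicate number as a block, and each library left out.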

Additional observations from a re-analysis of the deposited data

Results flagged for a closer look

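The difference between the 18 h changes of KO and WT, tested as an interaction with limma, passed for 659 genes with a more positive and 1350 with a more negative change in KO, and the genes named for it in the text are listed here because their difference passed that test. Among immune effectors and regulators, the difference on the log2 scale was 2.38 for Gbp2, 2.21 for Iigp1, 2.04 for Gbp5, 2.07 for Acod1, 1.65 for Ptgs2, 1.25 for Il1b and 0.62 for Tnf. In antigen presentation it was 2.46 for Ciita, 1.83 for Cd86 and 1.11 for H2-Ab1. For surface receptors and complement it was -2.29 for Fcgr2b, -2.26 for C1qa, -1.31 for Itgam and -0.93 for Ifngr1, and for lipid handling -1.35 for Smpdl3a and -0.92 for Pltp. Of the genes named by rule with a region in every group, the difference was 3.02 for Ank2, -3.73 for Tgfbi and -3.61 for Treml1. Where a group is listed at 0 only the limma adjusted p is given, which was 1.0e-07 for Il6, 2.9e-07 for Ifi202b, 1.4e-06 for Fam3b, 1.6e-04 for Fads2 and 9.4e-11 for Trim12a. What lies behind these differences was not tested. In a window of 500 bp on each side of the start, the differences of Iigp1, Acod1, Il1b, H2-Ab1, C1qa, Ifngr1, Smpdl3a and Fads2 did not pass, and those of Cd86 (-0.52) and Itgam (0.11) were of the other sign. No group had more than 3 libraries, too few for a test of single outlying libraries.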

How the results depend on the processing

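Of 186 recomputed counts, 156 stayed within 1.5 times the reported one. With 50 tags added in place of 10, 1312 genes fell over 2-fold. In a window of 500 bp on each side of the start, 1866 genes rose and 2818 fell (471 and 707 over 2-fold), 80 and 187 had a more positive and more negative change in KO than in WT, and 3930 were higher and 1876 lower at 18 h than at 1 h. With regions that overlap an input region left out, 7345 genes could be tested, of which 959 rose and 2323 fell (712 rose over 2-fold), 177 and 176 differed between KO and WT, 2076 and 1138 between 18 h and 1 h, and H3K27ac rose at 189 and fell at 608 starts of 1691. Restricted to the 7320 genes whose window overlaps no other, fewer genes enter, and 2247 rose, 3153 fell (1118 and 1511 over 2-fold), 837 were more negative in KO, and 3726 were higher and 1974 lower at 18 h than at 1 h. Centring gave 1329 more positive and 766 more negative genes in KO and 5117 lower at 18 h than at 1 h, and quantile normalization 1129 more positive and 4831 lower. Leaving out each library in turn gave 3456 to 3687 rises and 5128 to 5486 falls (1665 to 1743 and 2351 to 2537 over 2-fold), 538 to 861 more positive and 954 to 1466 more negative in KO, 6734 to 7057 higher and 2941 to 3088 lower at 18 h than at 1 h, and 1892 to 2277 rises and 3471 to 4749 falls of H3K27ac. Same-numbered KO 0 h and KO 18 h libraries did not deviate together (r = 0.023, 0.012 and 0.016), so they share only a number; with that number as a block the counts were 3747 rises and 5615 falls, 621 and 1235 for KO against WT, 7144 and 3131 for 18 h against 1 h, and 2135 and 3962 for H3K27ac, and no call of a named gene changed. Of the values of named genes under the alternatives, 3939 kept their direction and side of the threshold, 48 no longer passed, 2 newly passed and 55 changed sign. The adjusted p of calls that no longer passed was, with 1 tag added, Ank2 0.155, Ccl4 0.0568 and Rxra 0.152 for 18 h against 0 h, and Fam3b 0.0551 for KO against WT, and Ifi202b 0.22 for H3K27ac. Under quantile normalization it was Ank2 0.13, Ccl4 0.375, Eno1 0.121, Ifnar1 0.0837, Ifnar2 0.18 and Junb 0.0944 for 18 h against 0 h. In the start window it was Ccl4 0.081, Dusp1 0.414, H2-Ab1 0.176, Ifnb1 0.124, Itgam 0.819, Ly96 0.22, Marco 0.0641, Npc1 0.208, Oas1a 0.0569, Rpl3 0.0514, Sqle 0.149, Stat3 0.0772 and Tlr3 0.105 for 18 h against 0 h, and Acod1 0.109, C1qa 0.0514, Fads2 0.985, H2-Ab1 0.606, Ifngr1 0.0638, Iigp1 0.137, Il1b 0.208 and Smpdl3a 0.764 for KO against WT. After centring it was Cd80 0.0593 for 18 h against 0 h. With input-overlapping regions left out it was Ccnb2 0.288, Cd80 0.135, Cyp51 0.122, Msmo1 0.968 and Pfkl 0.305 for 18 h against 0 h, and H2-Ab1 0.0532 and Treml1 0.911 for KO against WT. Over the gene body without the start it was Ccl4 0.0502 for 18 h against 0 h. With only the groups compared in the fit it was Ccl4 0.157 for 18 h against 0 h. Ccl4 lost its call without KO 0 h replicate 1, KO 0 h replicate 3, KO 18 h replicate 1, KO 18 h replicate 2 and KO 18 h replicate 3 (adjusted p 0.0503 to 0.291), and Cd80 lost its call without KO 0 h replicate 1 (adjusted p 0.077). The values that newly passed were Acod1 -0.68 for 18 h against 1 h after centring and Gbp5 0.67 for 18 h against 1 h under quantile normalization. The log2 values that changed sign were, with input-overlapping regions left out, C1qa 0.84, Ccne1 -0.13, Elovl6 1.31, Fads3 0.45, Gch1 -0.77, Il15 -1.51, Itgam 1.32, Jak1 -3.34, Ly96 -0.58, Mcm5 -1.17, Mvd -0.62, Myc 0.49, Nfkb1 -2.08, Nlrc5 -1.90, Nos2 -0.98, Npc1 -2.39, Pfkfb3 -3.17, Ppargc1b -0.60, Relb -0.09, Runx1 4.62, Sqle 0.50, Stat3 -3.26, Tap2 -1.08, Tnip1 -1.32, Treml1 0.59, Tyk2 -4.19 and Usp18 -1.34 for 18 h against 0 h, and Nos2 -1.06 for 18 h against 1 h, and C1qa 0.84, Cd86 -0.15, Ciita -0.54, Itgam 1.32 and Trim12a 0.58 for KO against WT. In the start window they were Ccnb2 0.01, Ccne1 -0.39, Cd86 -0.40, Gas6 0.22, Gch1 -0.12, Il1rn -0.83, Jak1 -0.71, Msmo1 0.22, Nfkb1 -0.09, Pfkfb3 -0.21, Pfkl -0.43, Relb -0.11, Runx1 0.56 and Rxra -0.55 for 18 h against 0 h, and Cd86 -0.52 and Itgam 0.11 for KO against WT. Centring turned Gbp5 -0.31 for 18 h against 1 h, and quantile normalization Pkm -0.06 for 18 h against 0 h, and Acod1 0.18 for 18 h against 1 h. The gene body without the start turned Mcm5 -2.35 for 18 h against 0 h. Among libraries left out, KO 18 h replicate 3 turned Acod1 0.12 for 18 h against 1 h, KO 18 h replicate 2 turned Gbp5 -0.00 for 18 h against 1 h. Without each library in turn, Acod1 ranged from -0.42 to 0.12 and Gbp5 from -0.00 to 0.28 for 18 h against 1 h. The cause of these changes was not tested. Precision is limited by 3 libraries a group and by regions in place of reads, since a gene under the search threshold and an empty one are both listed at 0.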
